A study of Mus musculus with 3 samples.

Results

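*Prss35*, *Sorcs2* and *Lrrc17* are 3 of the 32285 genes counted in spatial transcriptomes of healing mouse skin, and they form 1 set because each had its highest level on Day 7 of the 3 days examined. That choice was made on the measured levels, so the order of the days is given here as a description and not as a finding. Fresh frozen skin wounds of adult male C57BL/6J mice, with no genetic change or drug, were sectioned on Day 3, Day 7 and Day 14 after full-thickness excisional wounding of the back, with 1 section per day. Each section was placed on a Visium slide, where every spot captures polyadenylated RNA from a small area that can hold several cells, and each captured molecule is counted once by its unique molecular identifier (UMI). With 1 section per day no difference between days could be set against the variation between animals. Every interval below is a 95% interval for counting error only. Those of shares of spots also take the spots of a section as independent, although neighbouring spots can be alike.

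A wound first fills with inflammatory cells and then with granulation tissue, a temporary matrix made by activated fibroblasts, which is later remodelled into a scar. The 3 genes are not known as classical markers of that tissue. The study that made these data did name *Lrrc17* as a potential inflammation-related gene of wound fibroblasts, and examined its expression on Visium. *Prss35* encodes a secreted protein of the trypsin-like serine protease family that lacks the usual catalytic serine and has been studied mostly in the ovary. *Sorcs2* encodes a receptor of the sortilin family, which binds the precursors of neurotrophins together with the neurotrophin receptor encoded by *Ngfr* and is best known from neurons. *Lrrc17* encodes a secreted leucine-rich repeat protein that restrains the formation of osteoclasts driven by the cytokine RANKL.

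The counts were made on the mm10 build, which is the GRCm38 assembly. In the GENCODE M21 annotation of that assembly all 3 genes are protein coding. *Prss35* (ENSMUSG00000033491) lies on the plus strand at chr9:86743649-86758443. *Sorcs2* (ENSMUSG00000029093) lies on the minus strand at chr5:36017180-36398139 and spans 380960 bases. *Lrrc17* (ENSMUSG00000039883) lies on the plus strand at chr5:21543559-21575904.

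Because these genes peaked on the same day, the 250 bases in front of their start sites are shown, taken from RefSeq on GRCm38.p6, which held an entry for 2 of the 3 genes, *Prss35* (chr9:86743383-86743632, plus strand) and *Lrrc17* (chr5:21543277-21543526, plus strand). Capitals mark a match to the letters of a GC box or a TATA box.
*Prss35*: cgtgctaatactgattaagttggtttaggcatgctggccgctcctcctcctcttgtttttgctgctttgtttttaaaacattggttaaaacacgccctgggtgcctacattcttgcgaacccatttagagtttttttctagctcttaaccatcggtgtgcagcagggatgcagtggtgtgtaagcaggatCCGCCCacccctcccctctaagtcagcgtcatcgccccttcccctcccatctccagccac
*Lrrc17*: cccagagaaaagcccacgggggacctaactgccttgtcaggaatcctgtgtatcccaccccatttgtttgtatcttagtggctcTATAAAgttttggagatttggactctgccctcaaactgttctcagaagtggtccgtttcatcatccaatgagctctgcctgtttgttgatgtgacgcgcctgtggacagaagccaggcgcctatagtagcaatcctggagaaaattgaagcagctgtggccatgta

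A set of 7 motifs was searched on both strands of this window. The *Prss35* window held 1 GC box (GGGCGG), which was present in 32.7% of the 32851 windows of the same length in the table. The *Lrrc17* window held 1 match to the TATA box letters (TATAAA), present in 12.4% of all windows, and 2 matches to the E-box (CANNTG), present in 66.2% and not capitalised. The TATAAA match lay at position -166 from the start site, and whether it acts as a TATA box was not tested. Neither window held the AP-1 letters TGANTCA (6.75% of all windows), the SMAD letters CAGAC (42.2%), the TEAD letters GGAATG (12.6%) or the RUNX letters TGTGGT (14.0%). The 2 windows thus shared no motif of those searched. The GC content was 50.8% for *Prss35* and 49.2% for *Lrrc17*, against a median of 52.4%.

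The submitters marked 664, 549 and 697 spots as tissue of interest on Day 3, Day 7 and Day 14, with 1772259, 4442962 and 4611723 UMIs. The median marked spot held 1513, 6687 and 4827 UMIs, so Day 3 was the shallowest section. The unmarked spots of the slides held between 49.0% and 59.2% of all UMIs. All 4992 spot barcodes occur on every slide, because the slides share 1 barcode set. Markers of skin were present, since none of the 10 genes of the epidermis list, the muscle list or the matrix fibroblast list was at 0 on any day. A typical gene differed little between sections, with a median log2 ratio of 0.03 (Day 7 to Day 3), -0.12 (Day 7 to Day 14) or 0.17 (Day 14 to Day 3).

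*Prss35* was nearly absent from the Day 3 section. Its level in the marked spots was 1.13 CPM (UMIs of the gene per 1000000 UMIs) on Day 3 (interval 0.137 to 4.08), from 2 UMIs. On Day 7 it was 268.5 CPM (253 to 284), from 1193 UMIs, and on Day 14 51.8 CPM (45.5 to 58.8), from 239 UMIs. Day 7 was 238 times Day 3 (65.7 to 1967, resting on 2 Day 3 UMIs) and 5.18 times Day 14 (4.51 to 5.98). None of the 3 intervals overlapped, and Day 14 remained 45.9 times Day 3 (12.6 to 381).

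*Sorcs2* had the same shape at a lower count. The 3 UMIs of Day 3 gave 1.69 CPM (0.349 to 4.95). On Day 7 the 527 UMIs gave 118.6 CPM (108.7 to 129), and the 126 UMIs of Day 14 gave 27.3 CPM (22.8 to 32.5). Day 7 was 70.1 times Day 3 (23.8 to 341) and 4.34 times Day 14 (3.57 to 5.32). Like *Prss35*, the receptor gene was still higher on Day 14 than on Day 3, by 16.1 times (5.40 to 79.3).

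*Lrrc17* differed from the other two genes in being clearly present on Day 3. The Day 3 section held 84 of its UMIs, or 47.4 CPM (37.8 to 58.7). The Day 7 section held 587, or 132 CPM (122 to 143), and the Day 14 section 78, or 16.9 CPM (13.4 to 21.1). Day 7 was 2.79 times Day 3 (2.21 to 3.55) and 7.81 times Day 14 (6.16 to 10.0). Day 14 lay below Day 3, at 0.357 times its level (0.259 to 0.492), whereas it lay above Day 3 for *Prss35* and *Sorcs2*. In these sections, fewer cells that express a gene and less of its RNA in each cell cannot be told apart.

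**Figure D1:**
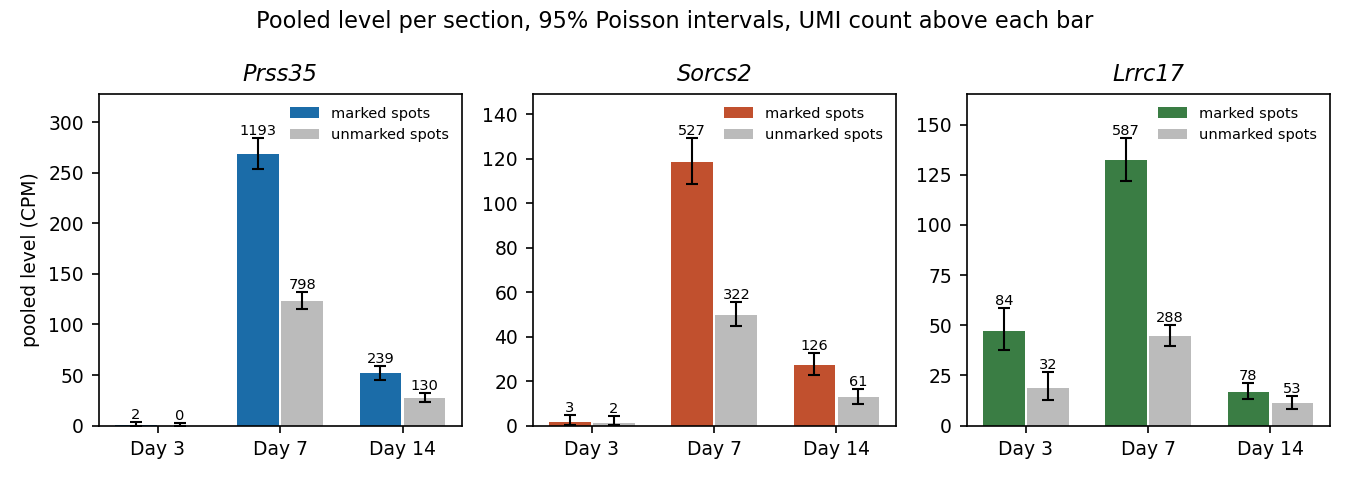
Pooled level in CPM of each gene in the 3 sections, for marked spots (coloured bars) and unmarked spots (grey bars), with 95% Poisson intervals as error bars and the UMI count above each bar. Day 7 holds the highest bar in both kinds of spots for all 3 genes, and the Day 3 bar is above the Day 14 bar only for *Lrrc17*.

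Of the 12133 genes that reached 50 UMIs when the sections were summed, 317, or 2.61%, were at least 2 times higher on Day 7 than on both other days. When the genes were ordered by the smaller of the 2 ratios, *Prss35* stood 18th, *Sorcs2* 35th and *Lrrc17* 124th. The order carries no test, since the 3 genes were picked from this contrast. Next to *Prss35* stood *Mamdc2* and *Adam12* above it, and *Unc5c* and *Itm2a* below it. *Sorcs2* stood between *Tgfb1i1* and *Tbx2* above and *P4ha3* and *Col6a3* below, and *Lrrc17* between *Igfbp7* and *Rnf144a* above and *Lsp1* and *Gucy1a1* below. Of these neighbours *Adam12* encodes a metalloprotease of mesenchymal cells and *P4ha3* a subunit of a collagen prolyl hydroxylase.

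The relatives and partners of the 3 genes were compared over the same days. Over all genes 2.61% were at least 2 times higher on Day 7 than on both other days, so few or no such genes in a short list are near that share. For *Prss35*, 1 of the 10 other serine protease genes with enough UMIs was at least 2 times higher on Day 7 than on both other days. It was *Plat*, the tissue plasminogen activator, at 34.4 CPM (Day 3), 159 CPM (Day 7) and 26.5 CPM (Day 14). *Prss23*, a close relative of *Prss35*, was highest on Day 3, at 222 CPM, with 142 and 119.7 CPM on the later days. *Htra1*, a secreted serine protease of matrix, was at 150, 423 and 296 CPM and missed the 2-fold mark against Day 14.

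Of the other sortilin receptors, *Sort1* was at 24.8, 49.5 and 55.9 CPM and *Sorl1* at 36.1, 18.2 and 34.7 CPM, so neither had its highest level on Day 7. *Sorcs1* had between 1 and 7 UMIs per section, and *Sorcs3* had 0. The co-receptor gene *Ngfr* was at 16.9, 20.5 and 5.64 CPM in the order of the days, and its Day 7 over Day 3 ratio of 1.21 had an interval that held 1. The ligand gene *Bdnf* was sparse, with at most 7 UMIs per section. None of the 4 neurotrophin ligand and receptor genes with enough UMIs reached a 2-fold Day 7 peak, which is near the 2.61% of all genes that did.

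For *Lrrc17*, the RANKL axis showed no Day 7 peak at 2-fold in any of its 4 genes with enough UMIs, again near the share over all genes. *Tnfsf11*, the gene of RANKL itself, had 1, 4 and 5 UMIs, and *Tnfrsf11b*, the gene of its decoy receptor osteoprotegerin, had 9, 17 and 23. Osteoclast genes were present, with *Ctsk* at 449.7, 437 and 218 CPM and *Acp5* at 83.5, 80.1 and 78.3 CPM, although fibroblasts and macrophages of skin can also express them. Of 11 other leucine-rich repeat genes, 5 were at least 2 times higher on Day 7 than on both other days, against 2.61% of all genes. They were *Lrrc15*, *Lrrc32*, *Islr*, *Bgn* and *Aspn*, and *Lrrc15* also belongs to the list of granulation tissue genes used below. *Dcn* and *Podn* of the same list had their highest levels on Day 3, 1125 CPM for *Dcn* and 66.6 CPM for *Podn*.

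The comparison with granulation tissue genes separated the 3 genes. Of a list of 12 such genes, which includes *Postn*, *Tnc*, *Fn1* and *Acta2*, 11 were at least 2 times higher on Day 7 than on both other days, against 2.61% of all genes. The list was chosen with earlier results of these data known, so this count is a description. On Day 7 *Postn* alone held 16405 of the 43519 UMIs of the list. Summed, the list stood at 9795 CPM in the Day 7 section, with 1610 CPM before it and 2058 CPM after it. Levels of the 3 genes were therefore also expressed per 10000 UMIs of this list. *Prss35* then had 7.01 UMIs in the first section (0.849 to 25.3), 274 in the Day 7 section (259 to 290) and 252 in the last (221 to 286). The Day 7 over Day 14 ratio was now 1.09 (0.947 to 1.26), which holds 1, while Day 7 was 39.1 times Day 3 (10.8 to 323). *Sorcs2* gave 10.5, 121 and 133 UMIs, with a Day 7 over Day 14 ratio of 0.912 (0.75 to 1.12).

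*Lrrc17* did not follow that pattern. Per 10000 granulation-list UMIs it was highest on Day 3, at 294 (235 to 364), and lower on Day 7, at 135 (124 to 146), and Day 14, at 82.2 (65.0 to 102.6). Day 7 was 0.458 times Day 3 (0.364 to 0.583) and 1.64 times Day 14 (1.29 to 2.11). Relative to the list, its highest value was thus on Day 3. Per UMI of a second list, of 10 matrix fibroblast genes that include the collagens *Col1a1* and *Col3a1*, all 3 genes kept their highest value on Day 7, with Day 7 over Day 14 ratios of 2.63 for *Prss35*, 2.20 for *Sorcs2* and 3.96 for *Lrrc17*. *Postn* alone as the denominator gave another order, with Day 7 over Day 14 ratios of 0.772 for *Prss35* (0.671 to 0.891) and 0.647 for *Sorcs2* (0.532 to 0.792), and *Lrrc17* was again highest on Day 3, at 1976 UMIs per 10000 of *Postn* against 358 on Day 7 and 307 on Day 14.

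**Figure D2:**
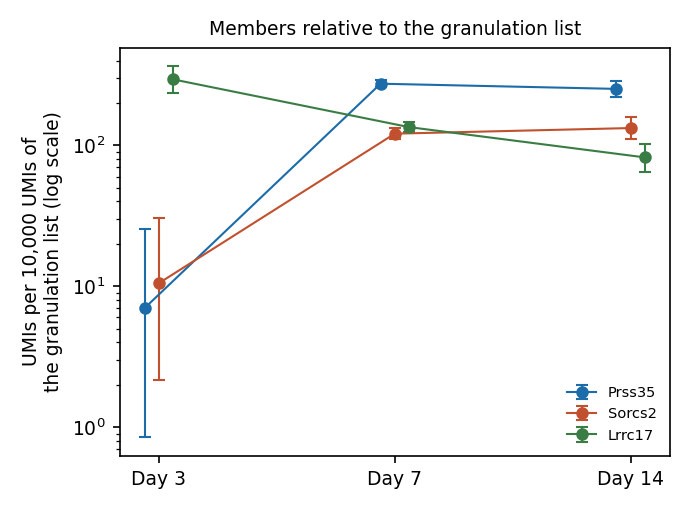
UMIs of each gene per 10,000 UMIs of the granulation list in the marked spots, by day and on a log axis, with 95% Poisson intervals. *Prss35* and *Sorcs2* lie far lower on Day 3 and nearly level between Day 7 and Day 14, whereas *Lrrc17* starts at 294 on Day 3 and is lower on each later day.

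The position of the transcripts on Day 7 was examined next. Each section was divided into 5 regions by k-means clustering of the spots, from which the 3 genes and the granulation list were left out. The Day 7 region with the most granulation-list RNA, 14372 CPM against 2898 to 7644 CPM in the other four, had 102 spots and was led by *Isg15*, *Cmtm7* and *Rpl35*. It was also the deepest region, with a median of 14958.5 UMIs per spot. Beside the granulation genes it held the highest sum of the macrophage list, 4189 CPM against 1704 to 2324 CPM elsewhere, and little muscle-list RNA, 27127 CPM against 54204 to 155830 CPM, and their part in the levels below was not tested.

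All 3 genes were higher in that region than in the rest of the section. *Prss35* was at 402 CPM in the region (372 to 434) and 190.5 CPM elsewhere, a log2 ratio of 1.08 (0.91 to 1.25). *Sorcs2* was at 166 CPM (147 to 187) and 90.8 CPM, a log2 ratio of 0.87 (0.62 to 1.13). *Lrrc17* was at 215 CPM (193 to 238) and 84.1 CPM, a log2 ratio of 1.35 (1.11 to 1.60). Of 3804 genes with at least 200 UMIs in the section, 78, or 2.05%, were at least 2 times higher in the region. *Prss35* and *Lrrc17* were among them, at ranks 56 and 12, and *Sorcs2* was below the mark, at rank 140.

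Outside the region the genes were lower but not absent. In the region led by the muscle genes *Trdn*, *Myh1* and *Myh2*, *Prss35* was at 77.0 CPM, *Sorcs2* at 43.3 CPM and *Lrrc17* at 33.7 CPM, from 16, 9 and 7 UMIs. In the largest region, led by *Serpinb5*, *Serpina3b* and *Serpina3j* and with 266 spots, they were at 199.6, 96.0 and 88.4 CPM. The 3 genes differed in their levels by distance from the granulation-rich region. Spots fully surrounded by the region (5 or 6 neighbours in it) had 469 CPM of *Prss35*, its edge 284 CPM and the first spots outside 215 CPM. Farther out *Prss35* did not fall steadily, at 210 CPM over 1 to 3 pitches away, 162 CPM over 3 to 6 and 188 CPM over 6. For *Lrrc17* the surrounded spots and the edge did not differ beyond counting error, at 209 CPM (182 to 239) and 225 CPM (188 to 267), and the spots over 6 pitches away had 61.3 CPM. *Sorcs2* was at 172 CPM in the surrounded spots, 157 CPM at the edge and 84.6 CPM over 6 pitches away.

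When granulation-list UMIs replaced all UMIs as the denominator, the regional difference narrowed. The Day 7 log2 ratio of the region over the rest was then 0.07 for *Prss35* (-0.10 to 0.23) and -0.14 for *Sorcs2* (-0.39 to 0.11), both holding 0, and 0.34 for *Lrrc17* (0.10 to 0.59). Ordering the spots by their share of granulation-list UMIs gave, in CPM, the same direction as the CPM contrast of the regions, without clusters. From the lowest to the highest of 5 equal groups of spots, *Prss35* went from 98.3 to 432 CPM, *Sorcs2* from 59.6 to 165 CPM and *Lrrc17* from 32.8 to 220 CPM.

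**Figure D3:**
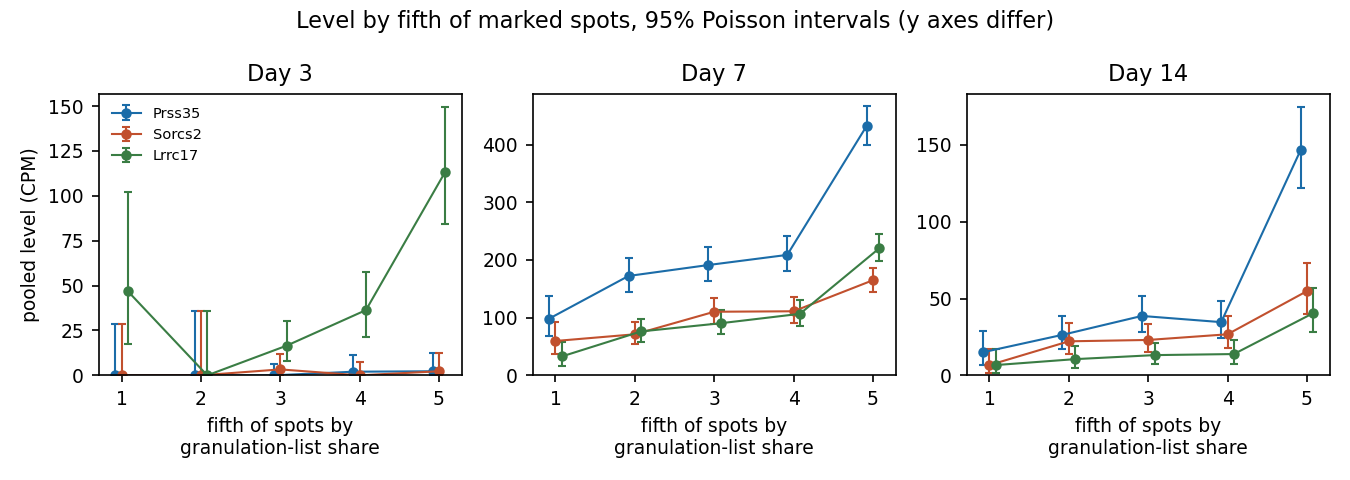
Pooled CPM of each gene in 5 equal groups of marked spots ordered by their share of granulation-list UMIs (group 5 is the highest), by day, with 95% Poisson intervals and a separate axis for each day. Group 5 holds the highest level of all 3 genes on Day 7 and Day 14, and of *Lrrc17* on Day 3.

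The same contrast was read on the other days. On Day 14 the granulation-richest region, with 251 spots and *Prss35* itself 10th among its leading genes, had 107.7 CPM of *Prss35* and the other spots 32.6 CPM, for a log2 ratio of 1.72 (1.34 to 2.10). The log2 ratio there was 1.08 for *Sorcs2* (0.54 to 1.61) and 1.32 for *Lrrc17* (0.63 to 1.996). On Day 3 *Lrrc17* was at 106.7 CPM in the granulation-richest region of 103 spots and 26.7 CPM elsewhere, a log2 ratio of 2.001 (1.35 to 2.67). Both Day 3 UMIs of *Prss35* and 1 of the 3 of *Sorcs2* lay in that region. Per granulation-list UMI the log2 ratio of *Lrrc17* on Day 3 was 0.59 (-0.06 to 1.26), which holds 0, and that of *Prss35* on Day 14 was 0.74 (0.36 to 1.12), above its Day 7 value of 0.07. The Day 3 region was led by other genes, *Cxcl5*, *Timp1* and *Hmox1*, so regions of different days are not the same tissue.

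On the Day 7 map *Prss35* was not spread evenly through the granulation-rich region. Counts per spot reached 41 UMIs, and 23 spots held at least 10. Of these, 22 lay in the region, and 13 formed 1 group of adjacent spots. These 23 spots, which were chosen by their *Prss35* count, held 35.1% of its UMIs and 12.2% of all UMIs. The region was then divided at the median vertical position of its spots into an upper part of 46 spots and a lower part of 56, a division chosen after the map was seen. Upper and lower are positions on the slide and were not tied to depth in the skin. *Prss35* was at 649 CPM in the upper part and 149 CPM in the lower part, a log2 ratio of 2.12 (1.84 to 2.42). *Lrrc17* was at 257 and 171 CPM, a log2 ratio of 0.59 (0.27 to 0.91), and *Sorcs2* at 182 and 150 CPM, a log2 ratio of 0.28 (-0.08 to 0.64) that held 0.

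Other genes differed between these parts as well. *Crabp1*, *Col7a1*, *Tnn* and *Col12a1* were among the genes with the highest Pearson's r with *Prss35* across the spots of the region. Their difference is therefore not separate from that r or from the chosen division, and it is not set against all genes here. *Crabp1*, which encodes a retinoic acid binding protein of dermal cells, was at 872 CPM in the upper and 138 CPM in the lower part. *Col7a1*, the collagen of anchoring fibrils, was at 1012 and 244 CPM, and *Tnn*, a tenascin, at 650 and 165 CPM. *Col12a1* was at 2076 and 739 CPM. *Acta2*, the smooth muscle actin of myofibroblasts, was at 835 and 355 CPM. The whole granulation list was at 16850 CPM in the upper and 11822 CPM in the lower part, a log2 ratio of 0.51 (0.47 to 0.55), while *Postn* and *Col1a1* had log2 ratios of 0.18 and 0.11. Median depth was 17246.5 UMIs in the upper and 13610.5 in the lower part, the macrophage list was lower in the upper part (3431 against 4968 CPM), and the epidermis list was slightly higher (2177 against 1769 CPM). The part of these in the *Prss35* difference was not tested.

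**Figure D4:**
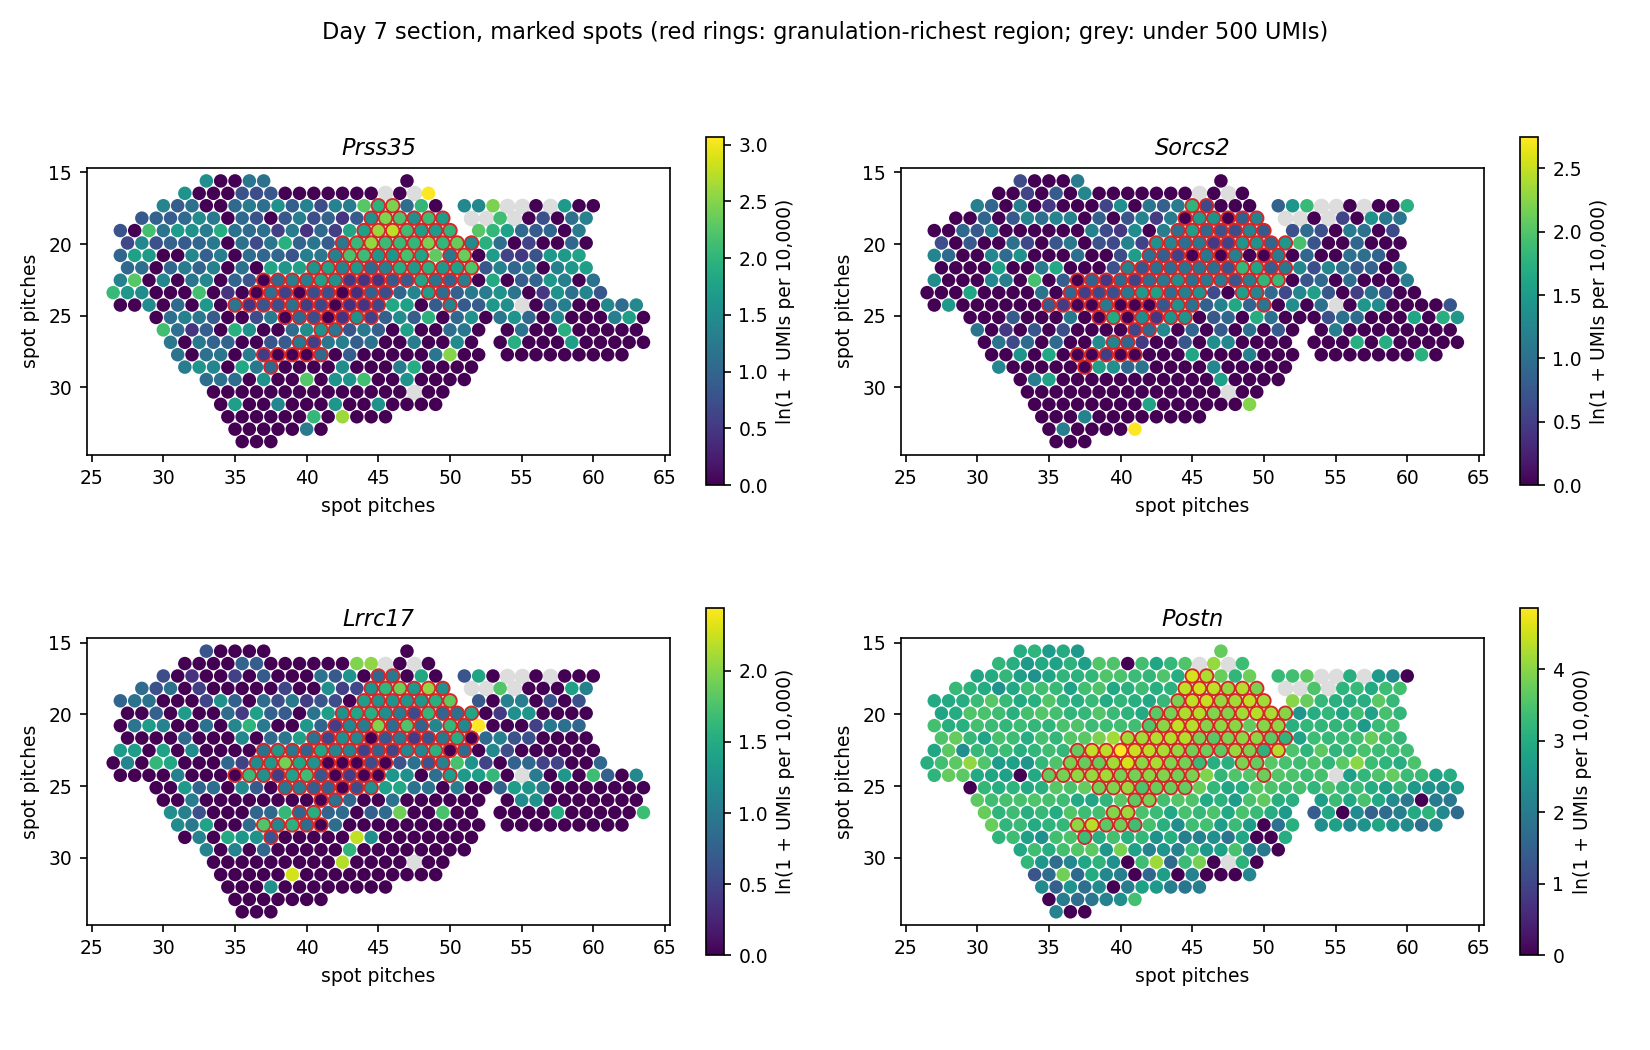
Marked spots of the Day 7 section at their positions in spot pitches, coloured by ln(1 + UMIs per 10,000) of each gene and of *Postn*, with red rings around the 102 spots of the granulation-richest region and spots under 500 UMIs in grey. *Prss35* is highest in the upper part of the ringed region (649 against 149 CPM in the lower part), *Sorcs2* and *Lrrc17* are more even along it, and *Postn* is high throughout it.

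The genes were found in many but not all spots. On Day 7, 340 of 549 spots had a *Prss35* UMI (61.9%, exact binomial interval 57.7% to 66.0%), 249 a *Sorcs2* UMI (45.4%, 41.1% to 49.6%) and 252 an *Lrrc17* UMI (45.9%, 41.7% to 50.2%). All 3 genes were found together in 148 spots (27.0%), of which 68 were among the 102 of the granulation-richest region. The 55 spots with the most UMIs of each gene held 53.2% of *Prss35*, 45.2% of *Sorcs2* and 53.0% of *Lrrc17*, against 21.8% to 23.0% of all UMIs.

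To compare shares at 1 depth, every spot was thinned to 1000 UMIs, and the shallower ones, 238 in the first section, 24 in the second and 18 in the last, were left out. Of the 525 Day 7 spots, 20.95% then held a *Prss35* UMI (17.5% to 24.7%), 8.57% a *Sorcs2* UMI (6.32% to 11.3%) and 10.1% an *Lrrc17* UMI (7.65% to 13.0%). Among 679 spots of Day 14 the shares were 5.45% for *Prss35* (3.87% to 7.43%), 2.36% for *Sorcs2* (1.35% to 3.80%) and 0.884% for *Lrrc17* (0.325% to 1.91%). Among 426 spots of Day 3 *Prss35* and *Sorcs2* were each in 0 spots, which allows a share of up to 0.704% by the limit of 3 counts and 0.862% by the exact binomial interval, and *Lrrc17* in 3.99% (2.34% to 6.31%). As in CPM, Day 3 lay above Day 14 for *Lrrc17* alone.

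The region richest in muscle-list RNA gives a level for comparison. In that muscle-richest region of Day 7, with a median depth of 2220.5 UMIs against 14958.5 in the granulation-richest region, a *Prss35* UMI was found in 10.13% of 79 spots (4.47% to 19.0%), against 30.4% of 102 spots in the granulation-richest region (21.7% to 40.3%). For *Lrrc17* the shares were 2.53% (0.308% to 8.85%) and 19.6% (12.4% to 28.6%), and these intervals did not overlap. For *Sorcs2* they were 3.80% (0.79% to 10.7%) and 13.7% (7.71% to 22.0%), with intervals that overlapped. How much of the share in the muscle-richest region came from RNA spread over the slide was not tested.

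Spatial clustering was measured by Moran's I, which is near 0 when adjacent spots are unrelated and near 1 when they are alike. On Day 7 it was 0.286 for *Prss35*, with 98 of the 3804 genes higher, 0.243 for *Lrrc17*, with 159 higher, and 0.119 for *Sorcs2*, with 751 higher. The median gene had 0.0565 and *Postn* 0.456. After thinning to 1000 UMIs the values were 0.0697, 0.0541 and -0.0045, so most of the clustering was not detectable at that depth, and none was for *Sorcs2*. On Day 14 *Prss35* had 0.277, close to its Day 7 value, with 177 of 4361 genes higher. *Lrrc17* had 0.0415 on Day 14 and 0.1 on Day 3, from 78 and 84 UMIs, where the medians over genes with at least 200 UMIs were 0.0608 and 0.162.

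**Figure D5:**
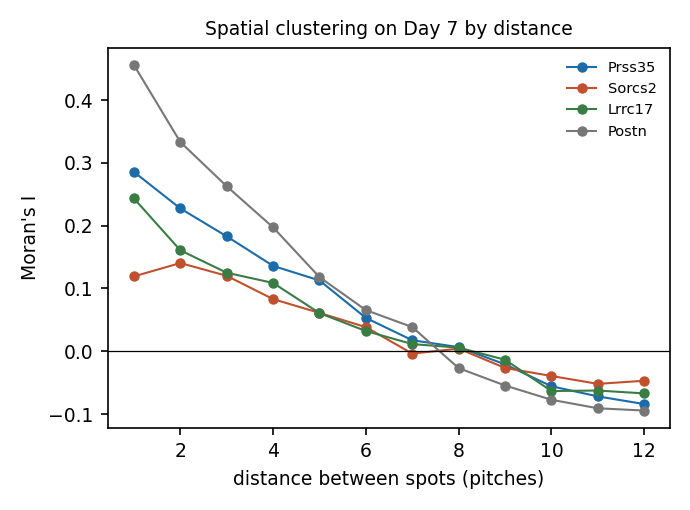
Moran's I on Day 7 for pairs of marked spots at increasing distance in spot pitches, for the 3 genes and *Postn*; the line at 0 marks no association. *Prss35* goes from 0.286 at 1 pitch to 0.0176 at 7 pitches, and at 8 pitches all 4 curves lie between -0.0269 and 0.0065.

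Genes that varied with each of the 3 across the 549 Day 7 spots were ranked by Pearson's r on ln(1 + UMIs per 10,000). The spots share a section and differ in depth, and r with log depth was 0.361 for *Prss35*, 0.342 for *Sorcs2* and 0.339 for *Lrrc17*, so these values describe the section and carry no test. Counting error lowers r for sparse genes, so the order also depends on the UMI count of each gene. The highest for *Prss35* were *Sparc*, the matrix glycoprotein osteonectin (0.391), *Col12a1* (0.372), *Col1a1* (0.369), *Col6a1*, *Tmsb10*, *Postn* (0.338), *Crabp1*, *Lrrc15*, *Col7a1* and *Vim*. An r of at least 0.3 was reached by 21 of 3803 genes, or 0.552%.

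The *Sorcs2* list was led by the same matrix genes, *Sparc* (0.335), *Col1a1* (0.319) and *Postn* (0.302), which were the 3 genes, or 0.0789%, that reached 0.3. It went on with *Col3a1*, *Col1a2*, *P4hb*, *Olfml3*, *Ppia*, *Thbs2* and *Lgals1*. For *Lrrc17*, 14 genes, or 0.368%, reached 0.3, led by *Sparc* (0.373), *Col1a1* (0.364) and *Postn* (0.362). *Fkbp10*, *Col5a1*, *Col3a1*, *Col1a2*, *Dkk3*, *Thbs2* and *Col12a1* followed. *P4hb* and *Fkbp10* act in the folding of collagen, and *Thbs2* is a matricellular protein.

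Of the 50 genes with the highest r, *Prss35* and *Sorcs2* shared 26 (52% of each list), *Prss35* and *Lrrc17* 18 (36%), and *Sorcs2* and *Lrrc17* 20 (40%). The 13 genes common to all 3 lists were *Bgn*, *Col12a1*, *Col1a1*, *Col1a2*, *Col3a1*, *Col5a1*, *Col5a2*, *Eef1a1*, *Postn*, *Ppia*, *Sparc*, *Thbs2* and *Tmsb10*. By list, the median r of the 12 granulation genes was 0.285 with *Prss35*, 0.222 with *Sorcs2* and 0.248 with *Lrrc17*, against 0.0928, 0.0851 and 0.0800 over all genes. The 10 macrophage genes had medians of 0.123, 0.177 and 0.152 and the 10 epidermis genes 0.117, 0.0549 and 0.0338. The 10 muscle genes were lowest, with medians of -0.319, -0.269 and -0.341, and the lowest single values were *Ckm* for *Prss35* (-0.403) and *Lrrc17* (-0.386) and *Myh4* for *Sorcs2* (-0.328).

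The r values among the 3 genes were lower than those of each with *Sparc*. *Sparc* had 40752 UMIs in the section, against 1193 for *Prss35*, 527 for *Sorcs2* and 587 for *Lrrc17*. Counting error lowers r between sparse genes, so these values cannot show that the 3 genes are less alike. Between *Prss35* and *Lrrc17* r was 0.262, between *Prss35* and *Sorcs2* 0.257, and between *Sorcs2* and *Lrrc17* 0.153. Within the granulation-richest region the last pair had an r of -0.145. After thinning to 1000 UMIs the 3 pairs gave 0.0982, 0.0162 and -0.0368, and no gene reached 0.3 with any of the 3, so the partners could not be ranked at that depth.

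Inside the granulation-richest region the partners of *Prss35* came out more sharply. Across its 102 spots r was 0.780 with *Col12a1*, 0.715 with *Tnn*, 0.682 with *Col7a1*, 0.644 with *Lrrc15* and 0.631 with *Crabp1*, against 0.372, 0.318, 0.326, 0.329 and 0.336 over the section. With *Vim* it was 0.0454. *Col12a1*, *Tnn*, *Col7a1* and *Crabp1* were also compared between the upper and lower parts of the region, so these results are not separate. *Lrrc17* reached at most 0.419 there, with *Col1a2*, and 0.416 with *Sparc*. *Sorcs2* reached at most 0.366, with *Gpc1*, and its section-wide partners *Sparc*, *Col1a1* and *Postn* had 0.0420, 0.0030 and 0.0351. *Gpc1*, a cell surface proteoglycan gene, was named after its value was seen.

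Spots that the submitters left unmarked carried transcripts of the 3 genes as well. On Day 7 muscle-list RNA made up 80482 CPM of the unmarked spots 1 pitch from the marked area and 132778 CPM of those over 10 pitches away. *Prss35* had 0 UMIs there on Day 3, then 123.6 CPM on Day 7 and 27.6 CPM in the last section. Day 7 was 70.2 times the limit of 1.76 CPM that 3 UMIs would give on Day 3, and the exact interval of the Day 7 over Day 3 ratio began at 56.9. *Sorcs2* was at 1.17, 49.9 and 12.9 CPM and *Lrrc17* at 18.8, 44.6 and 11.2 CPM. The order of the days was thus the same as in the marked spots for each gene. For *Lrrc17* the Day 7 over Day 14 ratio was smaller in the unmarked spots, 3.97 (2.95 to 5.43) against 7.81 (6.16 to 10.0).

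On Day 7 the unmarked level was 0.46 times the marked level for *Prss35* (0.42 to 0.504), 0.42 times for *Sorcs2* (0.365 to 0.484) and 0.338 times for *Lrrc17* (0.292 to 0.389). All 3 were thus at least 2 times higher in the marked spots, as were 7.00% of 7058 genes. Still, 40.1% of the Day 7 UMIs of *Prss35*, 37.9% of *Sorcs2* and 32.9% of *Lrrc17* lay in unmarked spots. With distance from the marked area *Prss35* was nearly level, at 173 CPM in spots 1 pitch away and 162 CPM at over 5 to 10 pitches, and was 84.7 CPM beyond 10 pitches, where the median spot held 328.5 UMIs. *Lrrc17* was at 61.0, 57.5 and 27.5 CPM at the same distances and *Sorcs2* at 90.6, 48.0 and 40.7 CPM. The richest unmarked spot had 10 UMIs of *Prss35*, 6 of *Sorcs2* and 4 of *Lrrc17*, against 41, 12 and 16 in the richest marked spot. How much of this came from cells there and how much from RNA spread over the slide was not tested.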

How the data were processed

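Visium libraries of 1 mouse skin wound section per day were sequenced by the authors and counted with Space Ranger 1.3.0 on mm10, per the labels, and the deposited matrices hold raw UMI counts per gene and spot. The genes, lists and tests were chosen with earlier results of these data known. UMIs were summed over marked spots and divided by all UMIs (CPM, per 1000000), with exact Poisson, exact conditional binomial (ratios) or exact binomial (shares) intervals, which hold no variation between animals. With 1 section per day no test was made, and spots were not used as replicates of a day. The intervals of shares treat the spots of a section as independent, although neighbouring spots can be alike. The floor for a count of 0 was 3 UMIs.

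Regions came from k-means (5 centres, 20 starts) on 20 principal components of the 2000 most variable genes, run on each section without the 3 genes and the granulation list. Moran's I used spots 1 pitch apart. Moran's I and r were ranked over genes with at least 200 UMIs in the section, and the 3 genes themselves were included from 50 UMIs. Genes were named singly if they were among the 10 highest r of a gene on Day 7, in a fixed list, among the first 3 leading genes of a Day 7 region or next to a gene in the order of peaks, and otherwise are said to be named after their values were seen. That holds for the genes compared between the upper and lower parts of the region and for the leading genes of the Day 3 region. Alternatives were TMM factors (edgeR 4.0.16), size factors (DESeq2 1.42.0), other denominators, filters, clusterings, transformations and thinning depths. Scripts were tested on simulated data. Python 3.11.15, SciPy 1.17.1, scikit-learn 1.9.0 and R 4.3.3 were used. Gene identifiers were matched to GENCODE M21, which held 32158 of 32285. The study's deconvolution was not used here.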

Additional observations from a re-analysis of the deposited data

How the results depend on the processing

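Of 107 values recomputed under an alternative, 83 stayed within the counting interval (or, for counts and Moran's I, within 1.5 times) of the value given, 23 moved beyond it and 1 changed sign. Ratios per UMI of the granulation list, of the matrix fibroblast list or of *Postn* are not among these 107 values. Both day ratios kept their direction for all 3 genes with TMM or DESeq2 factors, without muscle-list UMIs, with the mean of spot CPM, with spots of at least 500 UMIs and with unmarked spots added, but not with the granulation list or *Postn* as the denominator, as given with the levels. With the mean of spot CPM the *Lrrc17* log2 ratio of Day 7 over Day 3 was 1.04, against 1.48 in the main setting. With marked and unmarked spots together its Day 7 over Day 14 log2 ratio was 2.51, against 2.97. In CPM the region contrast also kept its direction throughout. Per granulation-list UMI it did not for *Sorcs2* on Day 7, at a log2 ratio of -0.14 (-0.39 to 0.11). With the 20% of spots richest in granulation-list RNA in place of the region the log2 ratio in CPM was 1.26 for *Prss35* on Day 7 and 2.25 on Day 14. With spots of at least 500 UMIs the log2 ratio was 1.26 for *Lrrc17* on Day 3. Thinning to 2000 UMIs gave shares of 32.7%, 18.03% and 19.1% for *Prss35*, *Sorcs2* and *Lrrc17*, and no thinning 61.9%, 45.4% and 45.9%, as deeper spots hold more UMIs. Thinning to 1000 UMIs took Moran's I to 0.0697 for *Prss35*, 0.0541 for *Lrrc17* and -0.0045 for *Sorcs2*, and left 0 genes with r of at least 0.3 for each. Spearman's correlation gave 13 such genes for *Sorcs2* and 38 for *Lrrc17*, and the granulation-richest region alone gave 68 for *Prss35*, 6 for *Sorcs2* and 28 for *Lrrc17*. The cause of those moves was not tested. The number of genes with a 2-fold Day 7 peak was 568 of 14694 with a minimum of 10 UMIs and 187 of 7943 with 200. No paired analysis was possible because each day had 1 section. Depth limits Day 3 most, where *Prss35* and *Sorcs2* rest on 2 and 3 UMIs.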

Other observations

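On the other days the genes with the highest r across spots, named after their values were seen, were partly different ones. On Day 14 *Prss35* had its highest r with *Megf6* (0.361) and *Igfbp2* (0.353), followed by *Postn* (0.337), *Col3a1* (0.326) and *Bgn* (0.323), over 697 spots. *Sorcs2* had its highest with the fibrillar collagen gene *Col5a2* (0.232) and the crosslinking enzyme gene *Loxl1* (0.228), and *Lrrc17* also with *Col5a2* (0.190). On Day 3 *Lrrc17*, the only one of the 3 genes with at least 50 UMIs, had its highest r over 664 spots with *Col14a1* (0.248), *Kdelr2* (0.241), the secreted Wnt modulator gene *Sfrp2* (0.228) and the crosslinking enzyme gene *Lox* (0.227), and *Postn* stood 40th, at 0.178. These spots share a section and differ in depth, so the values describe the sections and carry no test.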
